A study of Drosophila melanogaster with 90 samples.

Results

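The genes described here encode the proteins of the cytosolic ribosome. They were taken from the rows of the deposited gene count table by name, as every FlyBase symbol that starts with RpL, RpS, RpLP or RpSP followed by a digit, plus sta, which encodes a protein of the small subunit. Of 9027 genes in the table, 85 were chosen in this way. Of these, 45 carry large subunit symbols, 35 small subunit symbols (sta included) and 3 belong to the acidic stalk (RpLP0, RpLP1 and RpLP2), and the other 2, RpL24-like and RpLP0-like, are named for a resemblance to a structural protein. The reference name table holds 93 such symbols. The other 8 (RpS10a, RpL7-like, RpL37-2, RpL22-like, RpL10Aa, RpS19b, RpS28a and RpS28-like) were not analysed here.

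The libraries were made from heads of Drosophila melanogaster females of the Canton-S strain in 3 treatments. Wildtype-mated females were mated to wildtype males, SP-null-mated females were mated to males that lack Sex Peptide, and virgin females were frozen in parallel. Sex Peptide, transferred in the ejaculate, is known to change egg laying, feeding and remating in females. Each treatment was sampled at 0.5 h, then every hour from 1 to 6 h, and at 8, 12 and 24 h, and the whole series was run 3 times, as repeats A, B and C. All flies were kept at 25 °C with lights on for 12 h of the day, and matings took place in the morning, so that time after mating and time of day run together in all 3 treatments. The sources used here do not state the age of the females, the allele of the SP-null males or how many heads a library holds.

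A ribosome is built from a small and a large subunit, each a ribosomal RNA core covered by single copies of many small proteins, with a flexible stalk on the large subunit that recruits translation factors. Because the proteins are needed in equal numbers, their genes are among the most highly and most evenly expressed in any cell, and their messenger RNAs are known to be controlled together, at transcription and, through the TOR pathway, at translation. Newly made proteins are fitted onto the ribosomal RNA in the nucleolus by assembly factors, which leave the particle before it translates. Genes of assembly factors are known targets of growth signals such as Myc.

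Of 90 samples, 87 had a column of counts, so that 27 groups had 3 libraries and 3 groups had 2 (wildtype-mated at 2 h and 3 h and virgin at 6 h, each without repeat C). Total counts ranged from 15411046 to 103387056 per library, with repeat A of wildtype-mated heads at 24 h the deepest. No 2 libraries of a group were as alike as counting error alone would make them (lowest chi-square per degree of freedom 6.668). The 6 listed markers of neurons and photoreceptors summed to between 23507 and 34661 CPM (counts scaled to library size) over all libraries, and orb, the only one of 8 listed germline markers analysed here, stayed between 26.1 and 42.3 CPM. Wildtype-mated repeats C and A at 24 h stand apart, and the members' counts at 24 h and across all times are also given without them.

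Ribosomal protein transcripts made up 5.59% to 9.62% of the counts of a library, with a median of 8.31%. Levels between genes are given here as CPM, scaled by the trimmed mean of M values (TMM) and divided by the length of all annotated exons in kb. On this scale 75 of the 85 members lay above 500 CPM per kb, and the median member stood at 1084 CPM per kb. RpL41, whose product is the smallest protein of the large subunit, was highest at 3553 CPM per kb, followed by RpL23 (1993), RpS18 (1966), RpL39 (1955) and RpL27A (1889), and no other member reached that level. Among the lowest were RpLP0-like (19.6 CPM per kb), RpS15Ab (19.8), RpL22 (126) and RpL24-like (181). With the exception of RpL22, these low members are second copies of a gene or relatives that are not part of the mature ribosome.

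**Figure D1:**
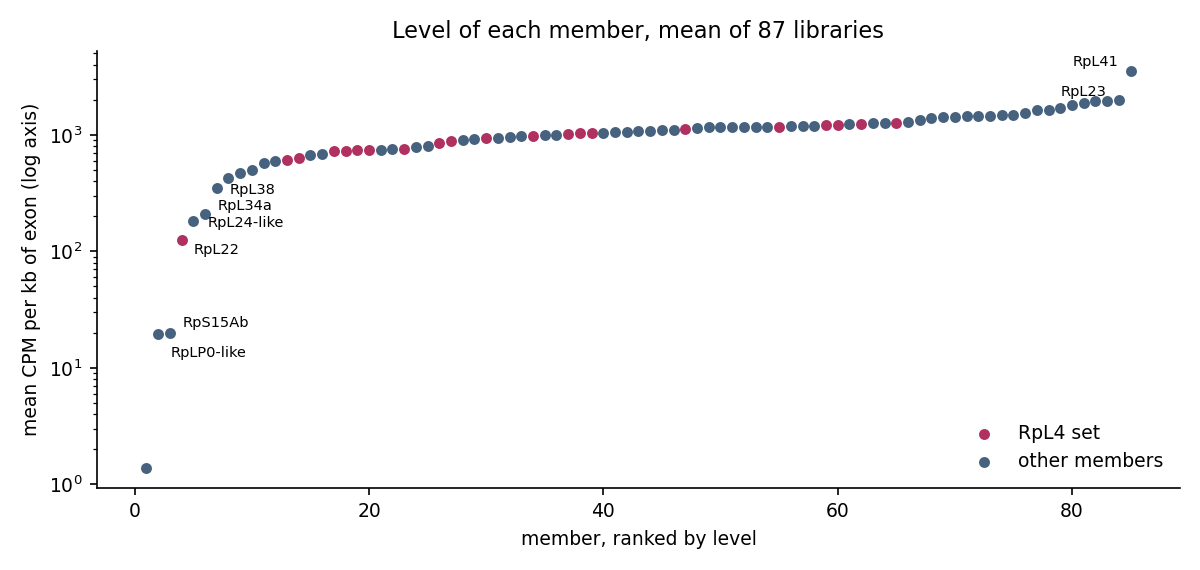
Mean level of each of the 85 members over 87 libraries, in CPM per kb of exon on a log axis, ranked from low to high. Red points mark the 21 members of the RpL4 set described in the text and blue points the other 64 members. Most members lie near 1000 CPM per kb, RpL41 stands above them at 3553, and RpLP0-like and RpS15Ab are among the lowest at 19.6 and 19.8.

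Where 2 gene copies encode the same protein, the shares of the copies were far from equal. RpL34b gave 83.3% ± 2.95 of the summed CPM of RpL34a and RpL34b (mean ± SD over 87 libraries), and RpS14b gave 31.9% ± 1.1 of the RpS14 pair, whose copies lie side by side and are near identical, so that reads may have been split between them in counting. RpS15Ab gave 2.17% ± 0.176 of the RpS15A pair. The RpS14 share ranged over libraries from 29.9% to 35.1%. The RpL34b share ranged from 70% to 87.8%, and its lowest value was in repeat C of wildtype-mated heads at 24 h.

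To follow the whole module over treatment and time, each member's log2 CPM was set against its own mean over the 87 libraries, and the median of these deviations over the 85 members was taken in each library. Most members shifted together at some times before 24 h. In wildtype-mated heads at 4 h 82 of 85 log2 fold changes against virgin heads were below 0 (median -0.18). Against SP-null-mated heads 83 were below 0 at 5 h (median -0.18) and 82 were above 0 at 12 h (median 0.19). Outside wildtype-mated heads at 24 h the group means lay between -0.19 (SP-null-mated heads at 12 h) and 0.17 (virgin heads at 0.5 h) on the log2 scale, and the SD within a group was between 0.0265 and 0.218, with a median over groups of 0.11. Wildtype-mated heads at 24 h had the lowest group mean, -0.30 ± 0.353 (SD, n = 3), against 0.07 ± 0.0621 in SP-null-mated heads and 0.12 ± 0.101 in virgin heads at the same time. Its libraries stood at -0.01 in repeat A, -0.19 in repeat B and -0.69 in repeat C, against 0.01, 0.08 and 0.13 in SP-null-mated heads and 0.00, 0.19 and 0.16 in virgin heads. Repeat C was the lowest of all 87 libraries, while repeat A lay within 0.02 of the SP-null-mated and virgin libraries of its own repeat.

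**Figure D2:**
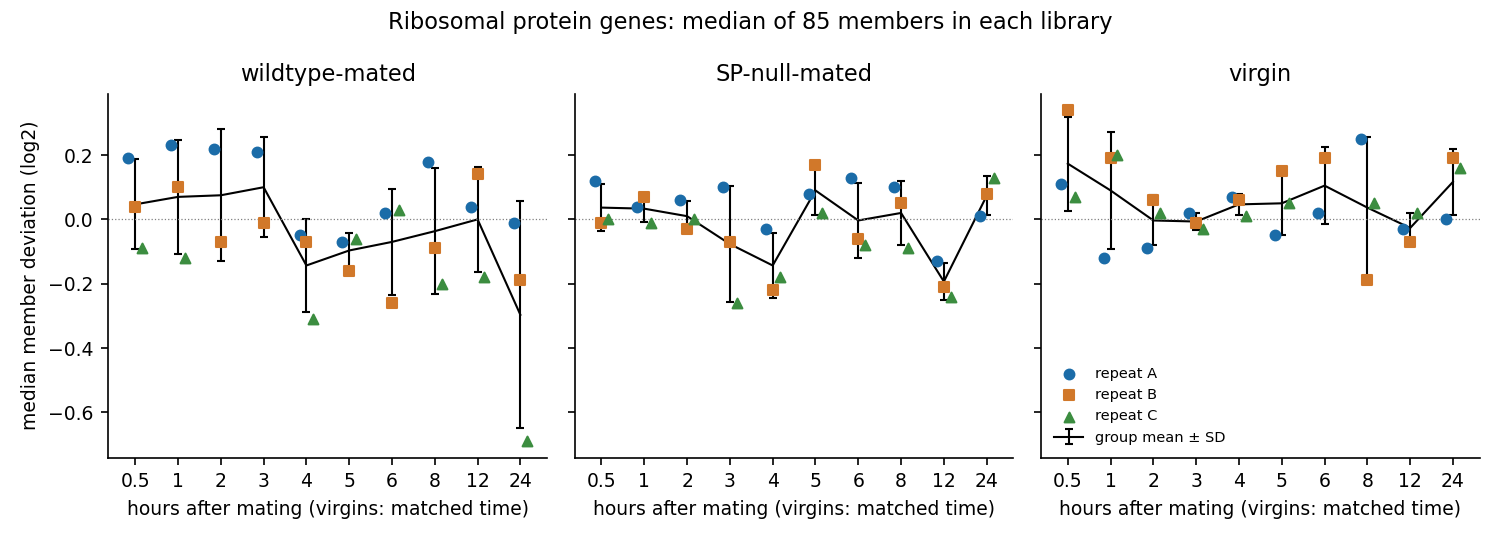
Median deviation of the 85 members from their own means (log2) in each library, against hours after mating (0.5 to 24 h, evenly spaced, with virgins at the matched times). Points are libraries by repeat, and the line with bars is the group mean ± SD (3 libraries, or 2 where repeat C was not analysed). Groups stay between -0.19 and 0.17 except wildtype-mated heads at 24 h, where repeat C lies at -0.69 and repeat A at -0.01.

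Across all 10 times together, 28 of 85 members differed between wildtype-mated and virgin heads (edgeR quasi-likelihood F test, adjusted p under 0.05, the rule for every call below), against 28.6% of all genes tested. Only RpLP0-like differed between SP-null-mated and virgin heads, 1 of 85 members against 7.06% of all genes. Between wildtype-mated and SP-null-mated heads 10 members differed, against 18.5% of all genes. As a share, the members were close to the background in the comparison of wildtype-mated with virgin heads and below it in the other comparisons. Without repeat C of wildtype-mated heads at 24 h, 3 members differed between wildtype-mated and virgin heads (21.6% of all genes) and 2 between wildtype-mated and SP-null-mated heads (15% of all genes), while without its repeat A the counts were 36 (26.8%) and 18 (16.8%). The smallest adjusted p of a structural member was that of RpS27 between wildtype-mated and SP-null-mated heads (0.0027), and that of RpL28 between wildtype-mated and virgin heads (0.00468). The comparisons share groups of libraries, so that they are not independent of each other.

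From 0.5 to 12 h hardly any member was called at a single time. In wildtype-mated against virgin heads the 1 call was RpLP0-like at 3 h, where 3.95% of all genes were called higher. At the other times before 24 h edgeR called 0 members, with between 0 and 12 members at an unadjusted p under 0.05, and DESeq2 called 0 as well. Of all genes 0.266%, 0.532%, 1.48%, 0.355%, 2.67%, 1.05%, 3.67% and 6.32% were called at these times (0.5, 1 and 2 h, then 4, 5 and 6 h, then 8 and 12 h). The replicate block, which fits repeat as a term, added 1 call each at 4, 5 and 12 h. In SP-null-mated against virgin heads edgeR and DESeq2 called 1 member each at 2, 3 and 4 h, again RpLP0-like, where 3.86%, 2.56% and 1.26% of all genes were called higher, and 0 at the other 7 times, where up to 15 members had an unadjusted p under 0.05. The share of all genes called was 0.676% and 0.521% in the samples of 0.5 and 1 h, 0.0111% in those of 5 h as in those of 8 h, and 0.0554% for 24 h, with 0 genes for 6 and 12 h. Between wildtype-mated and SP-null-mated heads 2 members were called at 12 h, both higher in wildtype-mated heads, RpLP0-like and RpL34a, against 6.49% of all genes called higher there. At the other times before 24 h edgeR and DESeq2 called 0 members, with up to 13 at an unadjusted p under 0.05, and the replicate block added 1 call at 6 h. No gene was called from 0.5 to 4 h, and 0.754%, 3.31% and 5.87% of all genes were called at 5, 6 and 8 h.

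At 24 h the picture differed. In wildtype-mated heads 51 of 85 members were lower than in virgin heads and 0 were higher, against 14.6% of all genes called lower and 14.6% called higher. Against SP-null-mated heads 47 were lower and 0 higher, with 13.9% of all genes called lower and 14.4% higher, and 43 members were called lower in both comparisons. The median member log2 fold change was -0.40 against virgin heads and -0.35 against SP-null-mated heads, while the median of all genes was 0.02 in both. Without repeat C of wildtype-mated heads the members' medians were -0.22 and -0.17. SP-null-mated heads did not differ from virgin heads in any member at 24 h (0 calls by edgeR and DESeq2, 0 members at an unadjusted p under 0.05, median log2 fold change -0.04). In whole heads, fewer cells of a type and less RNA per cell cannot be told apart.

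The lowered members came from both subunits and the stalk. RpL28, a large subunit protein, had 685, 693 and 381 CPM in repeats A, B and C of wildtype-mated heads, against 838, 881 and 920 CPM in SP-null-mated heads and 827, 976 and 935 CPM in virgin heads. The wildtype-mated libraries lay below all 6 others, and repeat C was far below the other 2. The log2 fold change of RpL28 was -0.64 ± 0.118 against virgin heads (SE, adjusted p = 5.69e-05) and -0.59 ± 0.118 against SP-null-mated heads (adjusted p = 0.000179).

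RpS27, of the small subunit, had 477, 512 and 327 CPM in wildtype-mated heads, against 603, 644 and 644 CPM in SP-null-mated heads and 585, 663 and 664 CPM in virgin heads. Its groups did not overlap either, and the log2 fold change of RpS27 was -0.54 ± 0.102 against virgin heads (adjusted p = 8.6e-05) and -0.52 ± 0.102 against SP-null-mated heads (adjusted p = 0.000122). RpL26 had 798, 842 and 390 CPM in wildtype-mated heads, against 1039, 1100 and 1166 CPM in SP-null-mated heads and 1104, 1265 and 1234 CPM in virgin heads. The log2 fold change of RpL26 was -0.83 ± 0.162 against virgin heads (adjusted p = 0.000133).

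RpLP0, the stalk protein that anchors RpLP1 and RpLP2, had 1191, 1190 and 762 CPM in wildtype-mated heads, against 1526, 1550 and 1599 CPM in SP-null-mated heads and 1442, 1612 and 1527 CPM in virgin heads. All 3 wildtype-mated libraries were below the other 6, and RpLP0 was called in both comparisons (log2 fold changes -0.57 ± 0.131 against SP-null-mated heads and -0.54 ± 0.131 against virgin heads). RpLP1 was called against SP-null-mated heads only (-0.45 ± 0.16, adjusted p = 0.0301, against -0.35 ± 0.16 and adjusted p = 0.0853 in the comparison with virgin heads), and RpLP2 in neither (-0.35 ± 0.168 and -0.34 ± 0.168). Whether RpLP1 responded differently in the 2 comparisons was not tested.

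Among the called members with the largest negative fold changes were the large subunit members RpL8 and RpL13A. RpL8 had 812, 1245 and 367 CPM in wildtype-mated heads, against 1678, 1600 and 1764 CPM in SP-null-mated heads and 1612, 1720 and 1624 CPM in virgin heads. RpL13A had 521, 882 and 286 CPM in wildtype-mated heads, against 1192, 1064 and 1280 CPM in SP-null-mated heads and 1167, 1105 and 1074 CPM in virgin heads. In both genes, wildtype-mated heads were lowest in repeat C and next lowest in repeat A, and their repeat B was nearest to the other treatments. The log2 fold changes against virgin heads were -1.03 ± 0.231 for RpL8 and -0.99 ± 0.248 for RpL13A (adjusted p = 0.000689 and 0.00224). RpL13A was not called without repeat C of wildtype-mated heads (-0.67, adjusted p = 0.0834).

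RpL22, of the large subunit, had the largest negative estimate against SP-null-mated heads and a wide spread. It had 56.8, 119 and 33.5 CPM in wildtype-mated heads at 24 h, against 227, 107 and 286 CPM in SP-null-mated heads and 348, 89.2 and 117 CPM in virgin heads, so that the groups overlapped. It was called against SP-null-mated heads (-1.58 ± 0.616, adjusted p = 0.0475), and not against virgin heads. The call of RpL22 was lost without repeat C of wildtype-mated heads at 24 h (-1.25, adjusted p = 0.236), without its repeat A (-1.44, adjusted p = 0.132), without repeat A or C of the whole series (adjusted p = 0.2 and 0.465), in the fit of the 24 h libraries alone (adjusted p = 0.139) and with the replicate block (adjusted p = 0.0505).

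**Figure D3:**
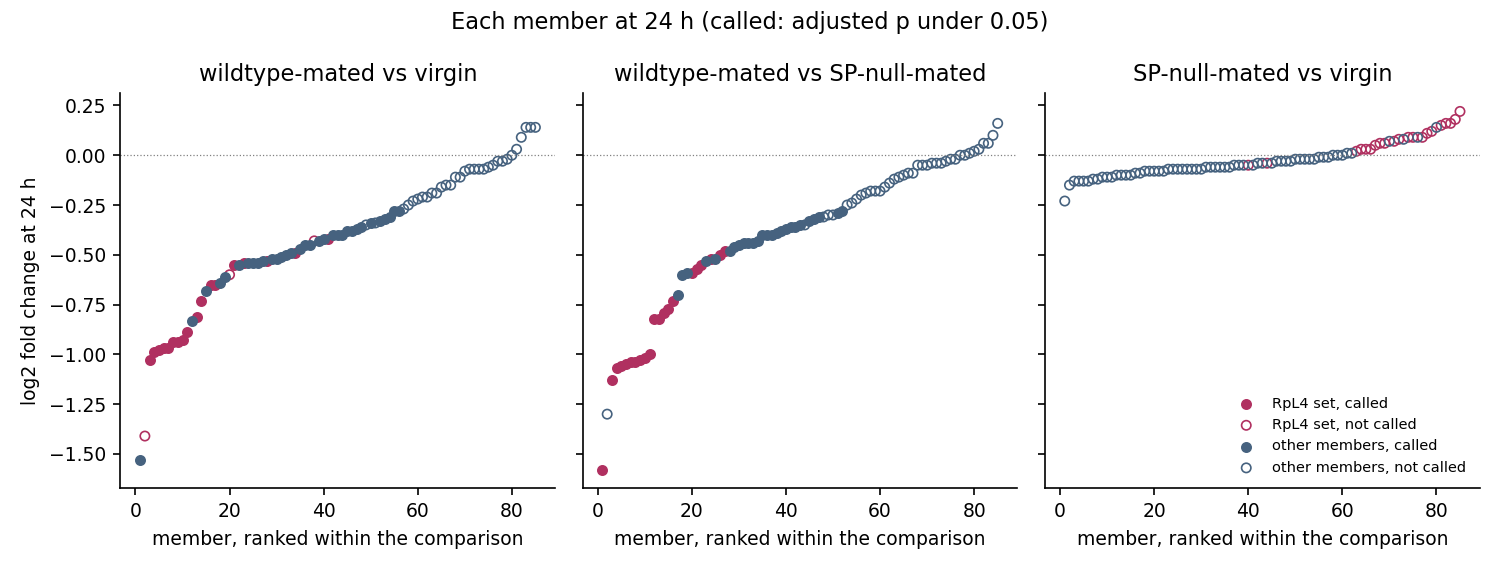
Log2 fold change of each of the 85 members at 24 h in 3 comparisons, ranked within each comparison. Filled points are called (adjusted p under 0.05), and red points are the 21 members of the RpL4 set. In wildtype-mated heads 51 members are called lower against virgin heads and 47 against SP-null-mated heads, with the RpL4 set at the low end, while SP-null-mated against virgin heads has 0 calls.

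Most calls at 24 h rested on a single library, although the estimates stayed below 0 without it. Shares of all genes in this paragraph count both directions. With all libraries they were 29.2% against virgin and 28.3% against SP-null-mated heads. Without repeat C of wildtype-mated heads at 24 h the calls against SP-null-mated heads fell to 11 (11.8% of all genes). Those against virgin heads fell to 10 of 85 (9.42% of all genes). The 10 were RpL8, RpL17, RpL23, RpL26, RpL28, RpL35A, RpL37-1, RpS3, RpS21 and RpS27. Without repeat A of that group the calls were 56 in each comparison, with 25.9% of all genes called against virgin and 23% against SP-null-mated heads. Without both repeat A and repeat C, where the 1 library left is assumed to vary like the other groups, the calls were 0 in each, with 1.19% and 2.13% of all genes called, and the median member log2 fold changes were -0.33 and -0.28. A fit of the 24 h libraries alone called 0 members against virgin heads and 1 against SP-null-mated heads (3.99% and 5.52% of all genes), with median member log2 fold changes of -0.42 and -0.37 against -0.40 and -0.35 in the fit of all libraries.

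Within repeats, the median member of wildtype-mated heads differed from that of virgin heads by -0.00 in repeat A, -0.38 in repeat B and -0.84 in repeat C, and from that of SP-null-mated heads by -0.03, -0.27 and -0.85. In repeat B 83 of 85 members were lower in wildtype-mated heads in each comparison, against 48.4% and 50.1% of all genes. Counts as one-sided also occurred in repeat B at other times. In SP-null-mated against virgin heads 84 were lower at 4 h (median -0.28). In wildtype-mated against SP-null-mated heads 84 were lower at 5 h (median -0.33). In wildtype-mated against virgin heads 0 were lower at 12 h (median 0.21). Such a count in 1 repeat is thus not particular to 24 h. In repeat A 43 were lower in each, against 46.5% of all genes in both. In repeat C 79 were lower than in virgin and 76 than in SP-null-mated heads, against 47.1% of all genes in both. Over single libraries, 40 members had all 3 wildtype-mated values below all 3 virgin values, against 14.1% of all genes, and 39 had all 3 below the SP-null-mated values, against 14.3% of all genes. For SP-null-mated below virgin heads the count was 1, against 8.31% of all genes.

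Some other gene groups moved with the members at 24 h and others did not. Against virgin heads 14.6% of all genes were called lower and 14.6% higher, and against SP-null-mated heads 13.9% and 14.4%. The calls of these groups without repeat C of wildtype-mated heads are not given here. The 62 genes of oxidative phosphorylation summed to 12286, 13654 and 10147 CPM in repeats A, B and C of wildtype-mated heads, against 14232, 14433 and 14947 CPM in SP-null-mated heads and 14225, 15144 and 14652 CPM in virgin heads, and 42 of them were called lower against virgin heads, with 0 higher. The 3 muscle markers summed to 1831, 2526 and 1578 CPM in wildtype-mated heads, against 2634, 2419 and 2417 CPM in SP-null-mated heads and 3366, 2664 and 2486 CPM in virgin heads, and over the libraries outside wildtype-mated heads at 24 h to between 2227 and 4017 CPM. All 3 muscle markers were called lower against virgin heads and 2 of 3 against SP-null-mated heads. The 31 proteasome genes went the other way, with 18 called higher and 0 lower against virgin heads. Of 3 glial markers 2 were called lower in each comparison (median log2 fold change -0.23 in both), with sums of 179, 205 and 179 CPM in wildtype-mated heads, against 211, 221 and 199 CPM in SP-null-mated heads and 212, 201 and 205 CPM in virgin heads. Of 4 head fat body markers 1 was called higher against virgin heads and 0 against SP-null-mated heads (medians 0.46 and -0.01). Neuronal and photoreceptor markers had 0 of 6 calls against virgin heads and 1 of 6 called lower against SP-null-mated heads, and their sums were 25916, 27524 and 23507 CPM in wildtype-mated heads, against 26165, 26605 and 25077 CPM in SP-null-mated heads and 28555, 26743 and 26646 CPM in virgin heads. The part of muscle or other tissue in the members' levels was not tested.

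Within the module a set of 21 members moved together apart from the rest. It was found after the values were seen, as the members whose deviation from the median member correlated above 0.7 over the 87 libraries with that of RpL4, and it is given as a description with no test. The correlations with RpL4 ran from 0.73 upwards inside the set, the highest outside it was 0.61, and the libraries share depth and preparation. The set holds 14 large subunit members (RpL4, RpL6, RpL8, RpL13, RpL13A, RpL17, RpL18, RpL22, RpL23A, RpL24, RpL34b, RpL35A, RpL37-1 and RpL37A), the stalk member RpLP0, and 6 small subunit members, among them RpS2, RpS14a, RpS19a, RpS26 and sta. RpL4 itself, on chromosome 3R at 27922821 to 27924888 on the plus strand (dm6), encodes a protein of the large subunit that lines the exit tunnel of the new chain.

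RpL4 ranged from 453 to 2494 CPM over the libraries. At 24 h it had 913, 1466 and 453 CPM in wildtype-mated heads, against 2098, 1835 and 2252 CPM in SP-null-mated heads and 1937, 1886 and 1717 CPM in virgin heads. It was also low in single libraries of every treatment, with 892 CPM in repeat B of wildtype-mated heads at 6 h, 928 CPM in repeat C of SP-null-mated heads at 4 h and 1253 CPM in repeat B of virgin heads at 12 h. Each of those groups held other libraries above 1600 CPM.

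Relative to the median member, the set stood lowest at 24 h in wildtype-mated repeats C and A, at -0.64 and -0.58 on the log2 scale, while repeat B of that group was at 0.03. Outside that group the lowest values were -0.45 in repeat A of SP-null-mated heads at 6 h, -0.44 in repeat B of wildtype-mated heads at 6 h and -0.42 in repeat B of virgin heads at 0.5 h, and the highest was 0.38 in repeat A of virgin heads at 4 h. The set was at or below -0.3 in 4 of 28 wildtype-mated, 3 of 30 SP-null-mated and 2 of 29 virgin libraries, and at or above 0.2 in 2, 3 and 10 of them. No time or repeat held all of these libraries.

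**Figure D4:**
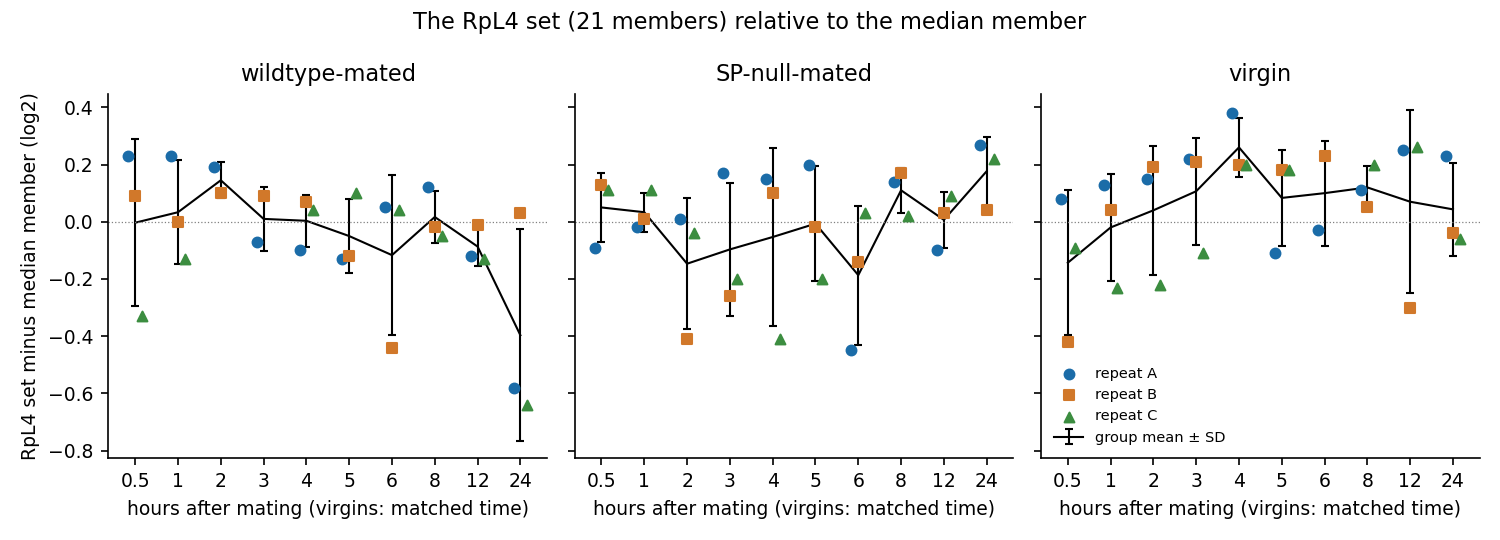
Mean deviation of the 21 RpL4 set members minus that of the median member (log2) in each library, against hours after mating. Points are libraries by repeat, and the line with bars is the group mean ± SD. Repeats A and C of wildtype-mated heads at 24 h lie at -0.58 and -0.64, and single libraries of all 3 treatments fall to between -0.45 and -0.41 at other times.

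At 24 h the median log2 fold change of the set in wildtype-mated heads was -0.81 against virgin heads and -0.82 against SP-null-mated heads, while the other 64 members had -0.32 and -0.24. The 2 kinds of member differed most in repeat A, where the set was lower than in virgin heads (median log2 difference -0.82) and the other members were not (0.11). In repeat B they moved alike (-0.36 and -0.39), and in repeat C both fell (-1.46 and -0.67). All 21 set members were called lower against SP-null-mated heads and 18 against virgin heads, together with 26 and 33 of the other members. Of all genes 13.9% and 14.6% were called lower in these comparisons. The 87 libraries that defined the set include those of 24 h, so its gap from the other members there is partly built in. Without repeat C of wildtype-mated heads 9 and 4 set members were called against SP-null-mated and virgin heads. Counting both directions, 11.8% and 9.42% of all genes were then called, against 28.3% and 29.2% with all libraries. The medians were then -0.62 and -0.56 for the set and -0.11 and -0.17 for the other members.

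The annotated features of the 21 were set beside those of the other 64 members. Their exons covered a median of 1203 bp, against 849.5 bp for the other members, and their coding sequences 615 bp, against 447 bp. Small nucleolar RNA genes lay in the introns of 7 of 21 set members and 21 of 64 others. Exons of a gene on the opposite strand overlapped 6 of 21 and 19 of 64. The set held 5 of 17 members on chromosome 2L, 0 of 19 on 2R, 4 of 14 on 3L, 6 of 19 on 3R and 6 of 15 on X.

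The pattern of the set reached beyond ribosomal proteins. Of 8939 other genes, 223 (2.49%) correlated above 0.7 with it over the 87 libraries. The 5 most like it were CG8929 (r = 0.95), CG17002 (0.94), CG11699 (0.94) and the complex I genes ND-B17 (0.94) and NdufV3 (0.94), at mean levels between 13.2 and 103 CPM.

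Some members did not follow the module. Over the 30 group means the correlation of a member with the mean of the others had a median of 0.88, and 62 of 85 members exceeded 0.8. RpLP0 and RpL37-1 were among those that followed most closely (0.97 each). RpLP0-like (-0.31), RpL38 (-0.07), RpS3A (0.12), RpL10 (0.23) and RpS15Ab (0.30) followed least. The 30 groups include wildtype-mated heads at 24 h, which had the lowest group mean. A low correlation therefore partly picks out members that did not fall there.

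RpL10, RpS3A and RpL38 were not lower in wildtype-mated heads at 24 h. RpS3A, a small subunit protein, had 1563, 1294 and 1699 CPM in wildtype-mated heads at 24 h, against 1374, 1530 and 1464 CPM in SP-null-mated heads and 1237, 1471 and 1424 CPM in virgin heads. RpL10, a large subunit protein near the catalytic centre, had 1311, 1053 and 1396 CPM in wildtype-mated heads, against 1104, 1254 and 1241 CPM in SP-null-mated heads and 1027, 1200 and 1196 CPM in virgin heads. RpL38 had 368, 386 and 502 CPM in wildtype-mated heads, against 411, 471 and 375 CPM in SP-null-mated heads and 355, 391 and 398 CPM in virgin heads. In all 3 genes repeat C of wildtype-mated heads was the highest of the 9 libraries at 24 h. The log2 fold changes against virgin heads were 0.14 ± 0.0978, 0.14 ± 0.112 and 0.14 ± 0.161 for RpS3A, RpL10 and RpL38, and none was called (adjusted p = 0.274, 0.367 and 0.546). RpL5 and RpL41 were also near their other levels at 24 h (log2 fold changes of -0.03 ± 0.1 and -0.03 ± 0.139 against virgin heads). Within the 1 library that was lowest for the module, repeat C of wildtype-mated heads at 24 h, the SD of the member deviations was 0.572, against a median of 0.131 over all libraries.

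RpLP0-like was the exception in the early hours after mating. It lies on chromosome 2R at 10098518 to 10099590 on the minus strand (dm6) and is related to yeast Mrt4, an assembly factor that holds the place of the stalk protein P0 on the unfinished large subunit. At 3 h RpLP0-like had 29 and 22.8 CPM in repeats A and B of wildtype-mated heads and 27.8, 30.1 and 15.6 CPM in repeats A, B and C of SP-null-mated heads, against 14.4, 16.1 and 12.6 CPM in virgin heads. All mated libraries but repeat C of SP-null-mated heads were above the virgin range. It rose against virgin heads in both, by a log2 fold change of 0.85 ± 0.172 in wildtype-mated heads (adjusted p = 0.000464) and 0.76 ± 0.157 in SP-null-mated heads (adjusted p = 0.000665), among 3.95% and 2.56% of all genes called higher.

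At 2 h RpLP0-like had 22.4, 19.2 and 21.3 CPM in SP-null-mated heads, against 12.7, 14.8 and 15.6 CPM in virgin heads, and at 4 h 26.2, 21.3 and 25.3 CPM against 16.1, 16 and 14.9 CPM. The groups did not overlap at either time, and the log2 fold changes were 0.55 ± 0.157 (adjusted p = 0.0237, with 3.86% of all genes called higher) and 0.63 ± 0.155 (adjusted p = 0.0144, with 1.26%). The calls of SP-null-mated against virgin heads were lost without repeat A of the series (log2 fold changes of 0.42, 0.66 and 0.59 at 2, 3 and 4 h, adjusted p = 0.515, 0.118 and 0.222) and without repeat B (0.63, 0.68 and 0.73, adjusted p = 0.12, 0.13 and 0.0953), and that at 4 h without repeat C (0.58, adjusted p = 0.0595). In wildtype-mated heads RpLP0-like had 18.1 and 16.6 CPM at 2 h and 23.3, 25.2 and 19.7 CPM at 4 h, and neither time was called against virgin heads (0.27 ± 0.177 and 0.54 ± 0.155, adjusted p = 0.612 and 0.0975). The difference between wildtype-mated and SP-null-mated heads was not called at 2, 3 or 4 h (log2 fold changes -0.28 ± 0.174, 0.08 ± 0.168 and -0.10 ± 0.151).

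Later the mated groups parted. At 12 h RpLP0-like had 23.9, 26 and 19.7 CPM in wildtype-mated heads, against 13.8, 17.5 and 15.3 CPM in SP-null-mated heads and 17.8, 16.6 and 16.6 CPM in virgin heads. The wildtype-mated values lay above all 6 others, and the difference from SP-null-mated heads was called (log2 fold change 0.58 ± 0.154, adjusted p = 0.00905), while that from virgin heads was not (0.45 ± 0.153, adjusted p = 0.0653). At 24 h RpLP0-like had 25.3, 17.9 and 17.1 CPM in wildtype-mated heads, against 17.1, 19.4 and 18.3 CPM in SP-null-mated heads and 19.8, 21.2 and 18.7 CPM in virgin heads, and the groups overlapped. The difference from virgin heads changed with time in SP-null-mated heads (adjusted p = 4.75e-05) and in wildtype-mated heads (adjusted p = 0.0107). The exons of RpLP0-like overlap those of Jra on the opposite strand, and the sources used here do not say that strand was used in counting. Jra was not called at 2, 3 or 4 h against virgin heads (log2 fold changes from -0.10 to 0.04), but was higher in wildtype-mated than in SP-null-mated heads at 12 h (0.31 ± 0.0801, adjusted p = 0.00675).

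**Figure D5:**
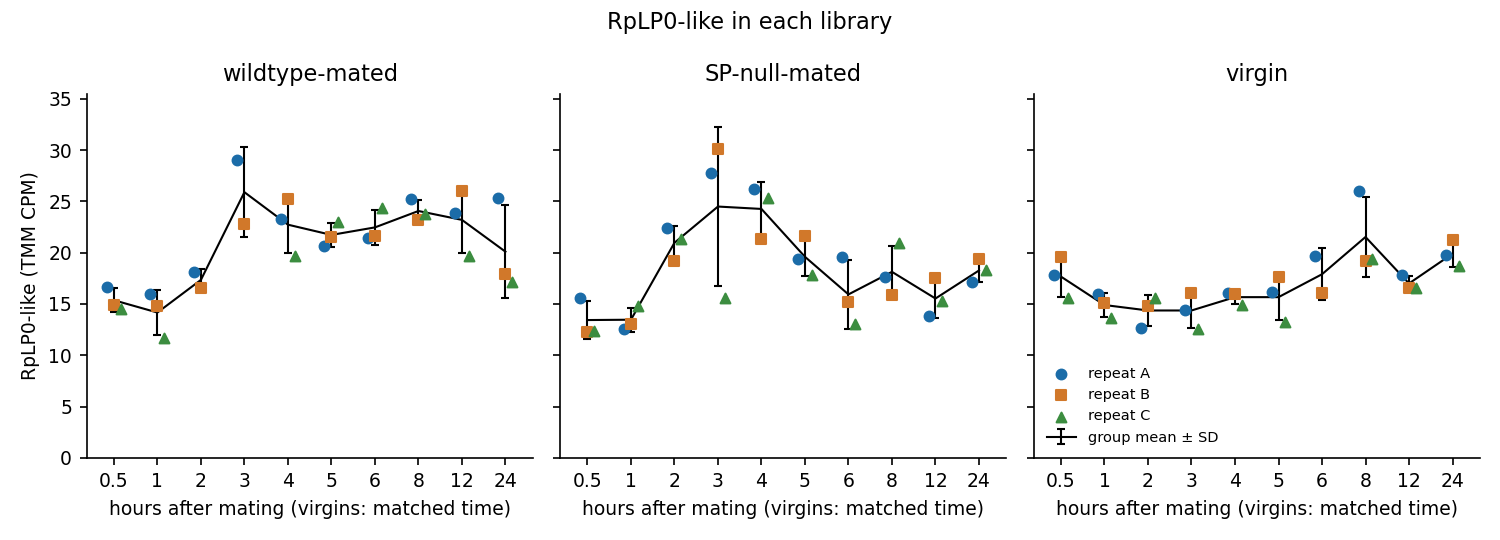
RpLP0-like in TMM CPM in each library, against hours after mating. Points are libraries by repeat, and the line with bars is the group mean ± SD. Both mated groups rise above virgin heads by 3 h, and at 12 h wildtype-mated heads are at 19.7 to 26 CPM and SP-null-mated heads at 13.8 to 17.5 CPM.

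The early rise of RpLP0-like was shared by most genes of a list of ribosome assembly factors. The list has 24 genes, of which 22 were tested, and it includes RpLP0-like and RpL24-like. Nap1, bor and Rrp1 are also in it, although they are better known from chromatin, mitochondria and DNA repair. Of the 20 listed genes that are not members, 16 were called higher in wildtype-mated than in virgin heads at 3 h, and 15 were called higher in SP-null-mated than in virgin heads at 2 h and 15 at 3 h, with 0 lower each time. The median log2 fold changes were 0.77, 0.71 and 0.75, while the medians of the 85 ribosomal protein members were 0.10, 0.00 and -0.08 and those of all genes -0.01, -0.00 and -0.00. In wildtype-mated heads at 2 h 2 of the 20 were called (median 0.29).

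Nop60B, the pseudouridine synthase that modifies ribosomal RNA, had log2 fold changes of 1.61 ± 0.227 in wildtype-mated and 1.54 ± 0.209 in SP-null-mated heads at 3 h against virgin heads (adjusted p = 1.06e-06 and 5.28e-07). bys, related to the small subunit assembly factor bystin, had 0.70 ± 0.129 and 0.82 ± 0.117 at 3 h (adjusted p = 8.78e-05 and 9.99e-07). Mat89Ba rose by 1.09 ± 0.15 in wildtype-mated heads at 3 h (adjusted p = 6.74e-07) and by 1.02 ± 0.134 in SP-null-mated heads at 2 h (adjusted p = 1.5e-07). At 6, 8 and 12 h 8, 12 and 14 of the 20 were higher in wildtype-mated than in SP-null-mated heads and 0 were lower, among 2.47%, 4.4% and 6.49% of all genes called higher. Nopp140, a nucleolar chaperone of modification complexes, was among those at 12 h (0.49 ± 0.139, adjusted p = 0.0164). Against virgin heads only 0, 2 and 3 of the 20 were called higher in wildtype-mated heads at 6, 8 and 12 h. The median log2 fold changes were 0.16, 0.31 and 0.31. In SP-null-mated against virgin heads 0 were called at these times, with medians of -0.23, -0.15 and -0.13.

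RpL24-like, related to the yeast assembly factor Rlp24 and, like RpLP0-like, not part of the mature ribosome, did not share the early rise. Its log2 fold changes against virgin heads at 3 h were 0.20 ± 0.143 in wildtype-mated heads (adjusted p = 0.659) and 0.20 ± 0.129 in SP-null-mated heads (adjusted p = 0.593). At 24 h RpL24-like had 143, 129 and 80.6 CPM in wildtype-mated heads, against 154, 154 and 144 CPM in SP-null-mated heads and 166, 167 and 169 CPM in virgin heads. It was lower in both comparisons (log2 fold changes -0.36 ± 0.128 and -0.51 ± 0.128), as were many structural members.

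RpL34a was the only structural member called before 24 h. At 12 h RpL34a had 134, 140 and 126 CPM in wildtype-mated heads, against 114, 109 and 107 CPM in SP-null-mated heads and 118, 120 and 119 CPM in virgin heads, with the wildtype-mated libraries above all others. The values of wildtype-mated and virgin heads did not differ by the test (0.16 ± 0.0924, adjusted p = 0.352). Its log2 fold change against SP-null-mated heads was 0.28 ± 0.0926 (adjusted p = 0.0408). At 24 h RpL34a was lower in wildtype-mated heads, at 129, 117 and 88.2 CPM, against 131, 137 and 145 CPM in SP-null-mated heads and 128, 148 and 147 CPM in virgin heads (log2 fold change -0.31 ± 0.0921 against SP-null-mated heads, adjusted p = 0.00995).

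Of 14 tested regulators of ribosome growth, 7 differed between wildtype-mated and virgin heads across all times, against 28.6% of all genes, and 2 between SP-null-mated and virgin heads, against 7.06%. Myc, a transcription factor that drives ribosome genes, was higher than in virgin heads at 2 h in wildtype-mated (0.83 ± 0.216, adjusted p = 0.0277) and in SP-null-mated heads (0.97 ± 0.197, adjusted p = 0.000401). S6k, the kinase of the small subunit protein RpS6, was higher at 2 h as well (0.38 ± 0.1 and 0.48 ± 0.0905, adjusted p = 0.0277 and 0.000123). At 24 h 5 of the 14 were higher and 2 lower in wildtype-mated than in virgin heads, against 14.6% of all genes each way. Myc was among those higher (0.83 ± 0.195, adjusted p = 0.00115), in the comparison of groups in which 51 ribosomal protein genes were called lower. The elongation and initiation factors had 12 of 43 genes lower and 1 higher in that comparison, and the mitochondrial ribosomal proteins 12 of 71 lower and 1 higher, where 14.6% of all genes were lower.

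Few members changed over the day in virgin heads. Only 3 of 85 were called, RpS15Ab, RpLP0-like and RpL10, against 29% of all genes. RpS15Ab had 15.1, 17.1 and 17.1 CPM in virgin heads at 0.5 h, 13.7, 12.3 and 13.2 CPM at 3 h and 15.3, 14.7 and 14.6 CPM at 24 h (adjusted p = 0.0136). RpL10 had 1213, 1551 and 1308 CPM in virgin heads at 0.5 h, 1007, 1041 and 1036 CPM at 4 h and 1027, 1200 and 1196 CPM at 24 h (adjusted p = 0.0337). RpLP0-like was highest in virgin heads at 8 h, with 26, 19.2 and 19.4 CPM, against 12.7, 14.8 and 15.6 CPM at 2 h (adjusted p = 0.015).

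In SP-null-mated heads 2 members changed with time, RpLP0-like and RpL29, against 36.5% of all genes, and in wildtype-mated heads 30, against 52.6%. The count in wildtype-mated heads was 2 without repeat C of that group at 24 h, 36 without its repeat A and 1 without both. The difference between treatments changed with time for 3 members in wildtype-mated against virgin heads (RpLP0-like, RpS27 and RpL28, against 14.2% of all genes), for 1 in SP-null-mated against virgin heads (5.62%) and for 8 in wildtype-mated against SP-null-mated heads (11.8%), a count that became 19 under the replicate block. The count of 10 members that differed between wildtype-mated and SP-null-mated heads across all times became 20 under the block.

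Members also differed between the repeats of the series. Of 85 members, 36 differed between repeats, against 31.4% of all genes. Members made up 8.54% ± 0.51 of the counts in repeat A (SD, n = 30 libraries), 8.21% ± 0.706 in repeat B (n = 30) and 7.7% ± 0.692 in repeat C (n = 27). RpL24-like had the smallest adjusted p (2.96e-06), with repeat C lower than repeat A (mean log2 difference -0.22) and higher in 2 of 27 groups. RpS2, a member of the RpL4 set, was also lower in repeat C than in repeat A (-0.25, higher in 8 of 27 groups, adjusted p = 0.00166), as was RpS14b (-0.15, higher in 7 of 27 groups, adjusted p = 0.00425). Over the repeats, the median member deviation averaged 0.05 ± 0.105 in A, 0.00 ± 0.145 in B and -0.07 ± 0.178 in C.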

How the data were processed

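RNA from female heads was made into stranded poly(A) libraries, per the labels' protocols. Trimmomatic 0.39, STAR 2.7.5a, HTSeq 0.11.2 and edgeR are named in the submitters' processing notes, with the builds dm6 and BDGP6. The sources used here do not say if strand was used in counting. The authors deposited raw counts per gene (9027 genes, 87 libraries) and raw counts per exon bin (16011 bins of 4143 genes). Of the 85 members 22 are in the exon table, where their bins hold 0.111% to 26.5% of their gene counts, so it served only as an alternative. Of all gene IDs 8977 matched a symbol. Group and repeat came from the sample labels. No per-sample column was left unused.

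In R 4.3.3, edgeR 4.0.16 (quasi-likelihood, robust, TMM, filter on a minimum count of 10 and a minimum total of 15, leaving 9024 genes and all 85 members) was fitted with 1 mean per treatment and time over all 87 libraries. F tests took the 10 times of a pair of treatments together, the change of that difference with time, time within a treatment, and repeat. Single times were tested as contrasts. P-values were adjusted over all genes by Benjamini and Hochberg, and calls were made at an adjusted p under 0.05. The SE of a log2 fold change was taken from its size and the square root of its F value. Levels are TMM CPM, and log2 CPM has a prior count of 2. The fit was tested on simulated data, and the outcome of that test is not given here. The repeats are biological replicates per the design text, which also has the whole series repeated, so that same-lettered samples pair. Over 84 pairs of same-lettered samples the correlation of deviations from group means ran from -0.2287 to 0.3348 (median 0.07836).

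Alternatives were DESeq2 1.42.0, DESeq2-type (RLE) size factors, TMM without the members, no filter, a replicate block, leaving out each repeat, a separate fit of the 24 h libraries and summed exon bins. Leaving out repeats A and C of wildtype-mated heads at 24 h was added after the data were seen. Named members were the 3 with the smallest p in each test across times and of repeat, up to 3 called members at each end of the fold changes at 24 h, those most and least like the module, the 5 highest and 5 lowest per kb and paralog pairs. Others named were chosen after their values were seen, and a few members that the rule names are not reported here. The members and lists were chosen with earlier results of these data known. RNA read counts without molecular identifiers are not independent molecules.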

Additional observations from a re-analysis of the deposited data

Results flagged for a closer look

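The difference between treatments changed with time for 9 members (edgeR quasi-likelihood F test, adjusted over all genes). In the 3 comparisons below, 3.53%, 1.18% and 9.41% of the 85 members were called, against 14.2%, 5.62% and 11.8% of all genes. The share of members was below that of all genes in each. In wildtype-mated against virgin heads the adjusted p was 0.0107 for RpLP0-like, 0.0286 for RpS27 and 0.0359 for RpL28. RpLP0-like also changed in SP-null-mated against virgin heads, with an adjusted p of 4.75e-05. In wildtype-mated against SP-null-mated heads it was 0.00345 for RpS27, 0.0227 for RpL35A, 0.0288 for RpL37-1, 0.0298 for RpL23, 0.0306 for RpL28, 0.0447 for RpS21, 0.0484 for RpL34a and 0.0489 for RpL17. RpL34a was higher in wildtype-mated than in SP-null-mated heads at 12 h (log2 fold change 0.28) and lower at 24 h (-0.31). Without repeat C of wildtype-mated heads at 24 h, 1 member each was called in wildtype-mated against virgin and against SP-null-mated heads.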

How the results depend on the processing

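Over the fits that left out a repeat or a library, the calls at 24 h ran from 0 to 57 against virgin heads and from 0 to 56 against SP-null-mated heads. Without repeat C of the whole series they were 7 and 5, with 7 calls summed over single times against SP-null-mated heads. Of all genes 7.86% and 7.94% were called at 24 h in that fit, counting both directions. The share of members was close to this background against virgin heads and below it against SP-null-mated heads. The median member log2 fold changes were then -0.20 and -0.14, against 0.01 for all genes in both comparisons. The members that differed across all times ran from 1 to 45 (wildtype-mated against virgin heads), 0 to 1 (SP-null-mated against virgin) and 1 to 18 (wildtype-mated against SP-null-mated). Those changed with time ran from 1 to 36 in wildtype-mated, 1 to 3 in SP-null-mated and 0 to 3 in virgin heads, and those that differed between repeats from 1 to 47. Differences that changed with time ran from 0 to 12, 0 to 1 and 0 to 17 in the same 3 comparisons, and calls summed over single times from 2 to 58, 0 to 3 and 3 to 59. With the replicate block, 20 members differed across times between wildtype-mated and SP-null-mated heads, and differences changed with time for 8 (against virgin) and 19 (against SP-null-mated). DESeq2 gave 26, 12 and 26 for these, and RLE size factors 6 for the change with time against virgin heads. The separate 24 h fit called 0 and 1. Summed exon bins, over 21 members, gave 1, 0 and 1 across times, 1 in wildtype-mated, 0 in SP-null-mated and 0 in virgin heads over time, 1, 0 and 1 for differences that changed with time, 4, 0 and 2 over single times, 2 and 2 at 24 h, and 14 between repeats. On the gene table the same 21 had 13 and 14 calls at 24 h and 9 between repeats. Of the single members, 34 alternative values lost their call, 71 did not and 0 reversed. The cause was not tested. Of the 9 single-member calls followed through the alternatives, the replicate block lost only that of RpL22 (log2 fold change -1.52). Over all members it changed the calls at 24 h from 51 to 52 against virgin and from 47 to 50 against SP-null-mated heads. Counting depth limits the members of lowest level most, such as RpLP0-like at 11.7 CPM in a library.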

Other observations

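Genes outside the ribosomal proteins whose group means followed the module most closely were, over the 30 groups, Rack1 (r = 0.95), a protein that binds the small subunit, the elongation factor genes eEF1beta (0.95) and eEF1gamma (0.94), Nacalpha (0.90), which meets new chains at the ribosome, and eIF3f1 (0.85). The groups share libraries and depth with the members. The proteasome genes summed to 2072, 2280 and 1907 CPM in wildtype-mated heads at 24 h, against 1716, 1732 and 1914 CPM in SP-null-mated heads and 1744, 1743 and 1797 CPM in virgin heads, and 15 of 31 were called higher against SP-null-mated heads. Pdcd4, a listed regulator, was lower in wildtype-mated heads at 12 h, by a log2 fold change of -0.30 ± 0.0708 against virgin heads and -0.38 against SP-null-mated heads (edgeR, adjusted p = 0.00363 and 9.8e-05).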
